A study of Mus musculus with 5 samples.

Results

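The 10 genes described here encode small leucine-rich proteoglycans of the extracellular matrix: Dcn (decorin), Lum (lumican), Bgn (biglycan), Fmod (fibromodulin), Ogn (osteoglycin), Omd (osteomodulin), Prelp, Aspn (asporin), Podn (podocan) and Ecm2. They were chosen by gene symbol, and all 10 of 10 were found among the 28666 genes in the count table. RNA was taken from whole uteri of 5 pseudopregnant ICR females, an outbred mouse stock, aged 6 to 8 weeks. In the aged-SP group (replicates 1 and 4, n = 2) the females had been caged with aged, vasectomized C57BL/6 males, and in the young-SP group (replicates 1, 2 and 4, n = 3) with young, vasectomized C57BL/6 males. The ejaculate of such males carries seminal plasma (SP) without sperm, so no library came from a uterus with embryos. The labels give the collection as 3.5 days after caging, and the methods give a slightly earlier day. The comparison asks how uterine gene expression after exposure to SP of aged males differs from that after SP of young males.

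Small leucine-rich proteoglycans are secreted proteins built from leucine-rich repeats that fold into a curved solenoid, and most of them bind collagen fibrils and influence fibril diameter and spacing. Several carry sulfated sugar chains: chondroitin or dermatan sulfate on decorin and biglycan, keratan sulfate on lumican, fibromodulin and osteomodulin. In the uterus they lie in the endometrial stroma and between the smooth muscle bundles of the myometrium, and decorin and biglycan also bind growth factors and cell surface receptors. The domain annotation in the count table gave the leucine-rich repeat family LRR_8 to 8 of the 10 genes, against 0.433% of all listed genes, and the members without it were Bgn and Ecm2. The same 8 genes carried the cellular component term extracellular matrix, which 0.792% of all listed genes carry. The term collagen fibril organization was attached to Lum and Fmod.

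Most of the members lie in groups on the mouse genome (GRCm38). Ecm2 (chr13:49504810-49532789), Aspn (chr13:49544443-49567565), Omd (chr13:49582462-49592822) and Ogn (chr13:49608046-49624501) follow each other on the plus strand, with gaps of 11.7, 14.9 and 15.2 kb. All of them lie within the span of Cenpp, which is transcribed from the minus strand, and only Aspn shares exonic sequence with it, over 7 bases. Dcn (chr10:97479609-97518143, plus strand) and Lum (chr10:97565128-97572703, plus strand) are 47 kb apart. Prelp (chr1:133910304-133921414, minus strand) and Fmod (chr1:134037254-134048277, plus strand) point away from each other across 116 kb, and Optc, which encodes the related proteoglycan opticin, lies beside Prelp. Bgn (chrX:73483602-73495933, plus strand) and Podn (chr4:108014791-108096445, minus strand) stand alone. Prelp shares 350 exonic bases, 9.68% of its exonic length, with the antisense gene Gm15851. The library protocol is not stated to keep the strand, so reads from these overlaps cannot be told apart.

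Of the 8 members with a promoter window in RefSeq (GRCm38.p6), 3 are shown. Fmod and Prelp are neighbours whose values differed most in pattern among members with over 100 counts in every library, and Aspn belongs with Prelp by its values. Each window is the 250 bases before the annotated start, 5′ to 3′ on the strand of the gene, and capitals mark matches on either strand to the TATA box (TATAAA), the motif of the factor NF-Y (CCAAT) or the GC box (GGGCGG). The windows are chr1:134037004-134037253 for Fmod, chr1:133921402-133921651 for Prelp and chr13:49544193-49544442 for Aspn.
Fmod: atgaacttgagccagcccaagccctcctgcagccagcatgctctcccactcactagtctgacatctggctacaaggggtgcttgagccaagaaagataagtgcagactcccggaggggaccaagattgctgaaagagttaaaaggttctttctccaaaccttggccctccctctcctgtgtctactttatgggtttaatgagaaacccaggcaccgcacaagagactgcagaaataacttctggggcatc
Prelp: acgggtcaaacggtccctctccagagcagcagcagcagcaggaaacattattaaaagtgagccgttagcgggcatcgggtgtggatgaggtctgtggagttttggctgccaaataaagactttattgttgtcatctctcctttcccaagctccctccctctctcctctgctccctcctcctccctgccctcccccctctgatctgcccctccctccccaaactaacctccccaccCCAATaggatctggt
Aspn: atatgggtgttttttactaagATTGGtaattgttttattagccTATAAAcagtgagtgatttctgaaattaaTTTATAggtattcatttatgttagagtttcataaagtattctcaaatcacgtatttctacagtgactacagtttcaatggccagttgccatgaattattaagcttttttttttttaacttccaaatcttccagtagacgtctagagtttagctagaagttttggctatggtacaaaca
The Fmod window held no match to any of these motifs. The NF-Y motif was found for Prelp and Aspn, and in 33.8% of all 32851 RefSeq windows of this length. The TATA box was found for Aspn and Ogn and in 12.4% of all windows. The GC box was found for Bgn, Ecm2 and Podn and in 32.7% of all windows. These matches are descriptions of sequence and show no binding. The GC content was 51.2% for Fmod, 55.6% for Prelp and 30% for Aspn, against a median of 52.4% over all windows.

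Depth was similar among the libraries, with total counts between 15071914 and 16728601, and 17013 genes passed the filter on low counts, all 10 members among them. Markers of endometrial stroma, epithelium, glands and myometrium were present in every library, as the label uterus calls for. In a principal component analysis of the most variable tested genes, young-SP replicate 1 lay at −9.43 on the first component. This was on the side of the aged-SP libraries (−43.7 and −25.5), with the other young-SP libraries at 41.9 and 36.6. Results that this library moved past a threshold are therefore also given without it. Leaving it out favours a difference between the groups, since it was picked for lying toward the aged-SP libraries. The edgeR test called 25 genes with all libraries and 578 without it. Without young-SP replicate 2 or 4 it called 3 and 2. The libraries are separate samples per the labels, and p-values measure the spread between these samples only.

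The members covered a wide range of levels. Expressed per gene length as FPKM (fragments per kilobase, scaled to the library total), Dcn was the most abundant, with 316 and 408 in the aged-SP group and 283, 326 and 432 in the young-SP group. It ranked 122nd of all listed genes by its mean over the libraries. Lum, the keratan sulfate proteoglycan that limits the lateral growth of fibrils, had 199 and 277 FPKM in the aged-SP group against 211, 389 and 343 in the young-SP group. Ogn followed with a mean of 149 FPKM over the 5 libraries, and then came Bgn (77.0), Prelp (40.8), Aspn (31.8), Ecm2 (7.53), Fmod (4.64), Podn (1.15) and Omd (0.838). This order by FPKM was the same in 4 of the 5 libraries. In young-SP replicate 2, Lum (389) stood above Dcn (326), Aspn (24.2) above Prelp (23.7) and Omd (1.34) above Podn (0.877), so that these neighbours were not separated in every uterus. Together the 10 genes made up between 0.213% and 0.333% of the summed FPKM of a library, and Dcn alone between 32.8% and 41.2% of the FPKM of the members. The length in these FPKM was all annotated exonic bases of a gene, 5838 for Dcn, 6099 for Bgn, 2448 for Lum and 2566 for Ogn. The order and the shares depend on that choice. By CPM (counts scaled to library size), Bgn averaged 412 and Ogn 404 in the aged-SP group, and 509 and 368 in the young-SP group. Dcn had 1862 CPM and Lum 931 in young-SP replicate 2.

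**Figure D1:**
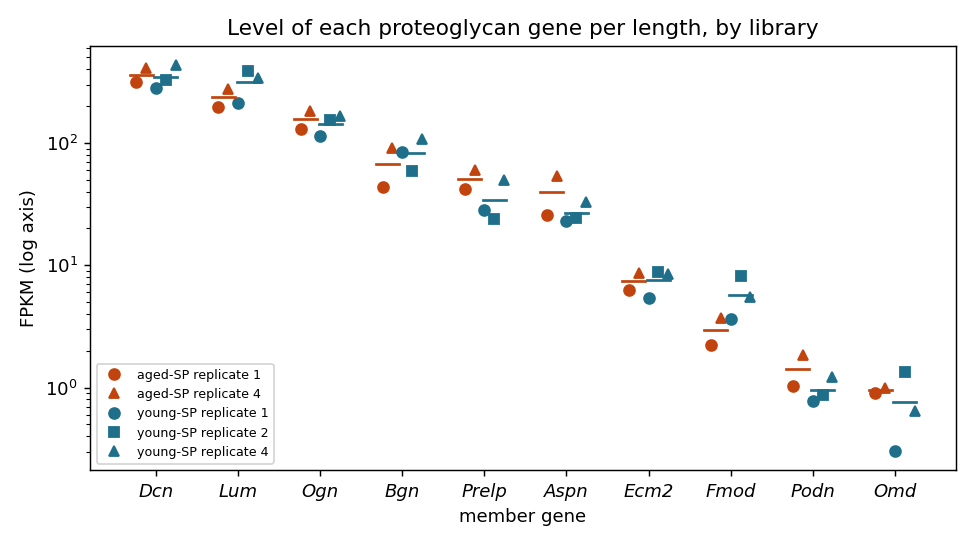
FPKM of each member on a log axis, with 1 point per library (orange for aged-SP, blue for young-SP, the marker shape for the replicate number) and a line at each group mean. The members run from Dcn (mean 353 FPKM) down to Omd (mean 0.838 FPKM), and the points of both groups overlap for every member.

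Between the groups, no member differed beyond the spread of the replicates. With edgeR's quasi-likelihood test and Benjamini-Hochberg adjustment over all tested genes, 0 of 10 members were called (adjusted p under 0.05 with a log2 fold change beyond −1 or 1), where 25 of all tested genes (0.147%) were called. At an unadjusted p under 0.05 the edgeR count was also 0 of 10, against 19% of all tested genes in either direction. DESeq2 called 0 of 10 members and 3.6% of all genes with an adjusted p, and had 1 of 10 members, Fmod, at an unadjusted p under 0.05, against 11.4% of all genes. For 0 of 10 members were the CPM values (counts scaled to a common library size after TMM) of the groups free of overlap, against 38.8% of all tested genes. The fold changes of aged-SP over young-SP were positive for 7 members and negative for 3, with a median of 0.10 on the log2 scale beside 0.0072 over all tested genes. In these bulk samples, fewer cells of a type and less RNA per cell cannot be told apart.

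Decorin, biglycan and asporin form the class with the closest sequence relation, and decorin and biglycan bind the growth factor TGF-beta. Dcn had 1867 and 2391 CPM in the aged-SP group and 1668, 1862 and 2537 CPM in the young-SP group. The aged-SP values lay within the range of the young-SP values, and the log2 fold change was 0.074 (SE 0.21, edgeR adjusted p = 0.881). Its 95% interval, from a fold of 0.727 to 1.52, lies within −1 and 1 on the log2 scale. Bgn, also a ligand of the innate receptors Tlr2 and Tlr4, had 271 and 553 CPM in the aged-SP group and 522, 350 and 657 CPM in the young-SP group. The lowest value was that of aged-SP replicate 1, while aged-SP replicate 4 lay above all but 1 of the young-SP libraries. The log2 fold change of Bgn was −0.31 (SE 0.38, edgeR adjusted p = 0.702), and it was 0.12 without aged-SP replicate 1 and −0.91 without aged-SP replicate 4. Aspn, which carries an aspartate repeat in place of a sugar chain and binds collagen, had 61.2 and 126 CPM in the aged-SP group and 54.1, 55.7 and 77.4 CPM in the young-SP group. A single library, aged-SP replicate 4, stood above the rest. The log2 fold change of 0.59 (SE 0.33, edgeR adjusted p = 0.394) became 1.01 without aged-SP replicate 1 and −0.027 without aged-SP replicate 4.

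Lumican, fibromodulin, osteomodulin and Prelp form the class whose members can carry keratan sulfate or tyrosine sulfate. Lum had 491 and 680 CPM in the aged-SP group against 521, 931 and 844 CPM in the young-SP group, with young-SP replicate 1 between the aged-SP libraries. The log2 fold change was −0.39 (SE 0.29, edgeR adjusted p = 0.506). Fmod, which binds the same fibril site as lumican and promotes fibril maturation, had 7.44 and 12.2 CPM in the aged-SP group and 12.1, 26.4 and 18.3 CPM in the young-SP group. The groups met at aged-SP replicate 4 and young-SP replicate 1. With means of 9.83 ± 3.38 (SD, n = 2) and 18.9 ± 7.20 CPM (SD, n = 3) and a log2 fold change of −0.95 (SE 0.40), Fmod had the smallest p of all members, an edgeR p of 0.0574 and an adjusted p of 0.280. The DESeq2 p was 0.0190, with an adjusted p of 0.152. Without young-SP replicate 1, 2 members had an unadjusted edgeR p under 0.05, Fmod (log2 fold change −1.20, adjusted p = 0.103) and Lum (−0.61, adjusted p = 0.132), against 22.7% of all genes tested in that fit, and 0 members were called. Over all 5 ways of leaving out 1 library, the log2 fold change ran from −1.35 (without aged-SP replicate 4) to −0.63 (without young-SP replicate 2, and likewise without aged-SP replicate 1) for Fmod, and from −0.64 (without aged-SP replicate 4) to −0.17 (without aged-SP replicate 1) for Lum.

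Prelp, which anchors basement membranes to the underlying collagen, had 153 and 219 CPM in the aged-SP group and 103, 84.1 and 180 CPM in the young-SP group. Its mean was 186 ± 46.3 CPM (SD, n = 2) against 122 ± 50.9 CPM (SD, n = 3), and young-SP replicate 4 lay between the aged-SP libraries. The log2 fold change of 0.60 (SE 0.35, edgeR adjusted p = 0.411) was close to those of Podn and Aspn. Leaving out 1 library moved it between 0.32 (without aged-SP replicate 4) and 0.98 (without young-SP replicate 4, edgeR adjusted p = 0.246). Omd, known from mineralized tissue, was the least abundant member, with counts of 34 and 35 in the aged-SP group and 11, 50 and 22 in the young-SP group. The young-SP libraries spread widely, and the 95% interval of the log2 fold change of Omd ran from −1.16 to 1.81, which includes −1 and 1.

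Ogn had 339 and 469 CPM in the aged-SP group and 292, 384 and 428 CPM in the young-SP group, with a log2 fold change of 0.13 (SE 0.21, edgeR adjusted p = 0.772). Ecm2, a matrix protein related to the family by its repeats, had 36.4 and 49.4 CPM against 30.7, 48.6 and 48.6 CPM, with a log2 fold change of 0.0082 (SE 0.25, edgeR adjusted p = 0.990). Dcn, Ogn and Ecm2 were the 3 members whose 95% interval lay within −1 and 1 on the log2 scale. Podn, a collagen-binding member expressed in smooth muscle, had low counts of 73 and 123 in the aged-SP group and 53, 62 and 79 in the young-SP group. Its log2 fold change was 0.59 (SE 0.35, edgeR adjusted p = 0.417), and 0.11 without aged-SP replicate 4. Aged-SP replicate 4 held the highest CPM of 5 members, and young-SP replicate 1 the lowest of 6.

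The collagens that these proteoglycans bind showed another picture. All 10 of the collagen genes listed (types I, III, V, VI, XII and XIV) had lower CPM in both aged-SP libraries than in every young-SP library, with a median log2 fold change of −0.85. All 10 had an unadjusted edgeR p under 0.05 and a lower value in the aged-SP group, against 9.36% of all tested genes. The list was chosen with earlier results of these data known, so this contrast is a description and no test of the collagens as a set. After adjustment, 0 were called by edgeR (adjusted p from 0.0734 to 0.239), while DESeq2 called 3 and gave 9 an adjusted p under 0.05. Without young-SP replicate 1, 7 of the 10 collagens had an edgeR adjusted p under 0.05 (Col1a1 0.0258, Col12a1 0.0366), against 4.81% of all genes tested in that fit. Without young-SP replicate 2 or 4, 0 of the 10 did. The further genes given below without young-SP replicate 1 were likewise above 0.05 without young-SP replicate 2 or 4. Scaled to the stroma markers, of which 4 of 10 also had an unadjusted p under 0.05 and a lower value in the aged-SP group, 5 collagens had an unadjusted p under 0.05 and their median log2 fold change was −0.45. The part of stroma makeup in the collagen values was otherwise not tested. Col1a1, the main chain of fibrillar type I collagen, averaged 2640 ± 323 CPM (SD, n = 2) after aged SP against 4936 ± 480 CPM (SD, n = 3) after young SP (log2 fold change −0.90, SE 0.13, edgeR adjusted p = 0.0734). Col12a1, a fibril-associated collagen, was at 63.0 ± 18.1 against 158 ± 6.57 CPM (log2 fold change −1.33, SE 0.19, edgeR adjusted p = 0.0734).

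**Figure D2:**
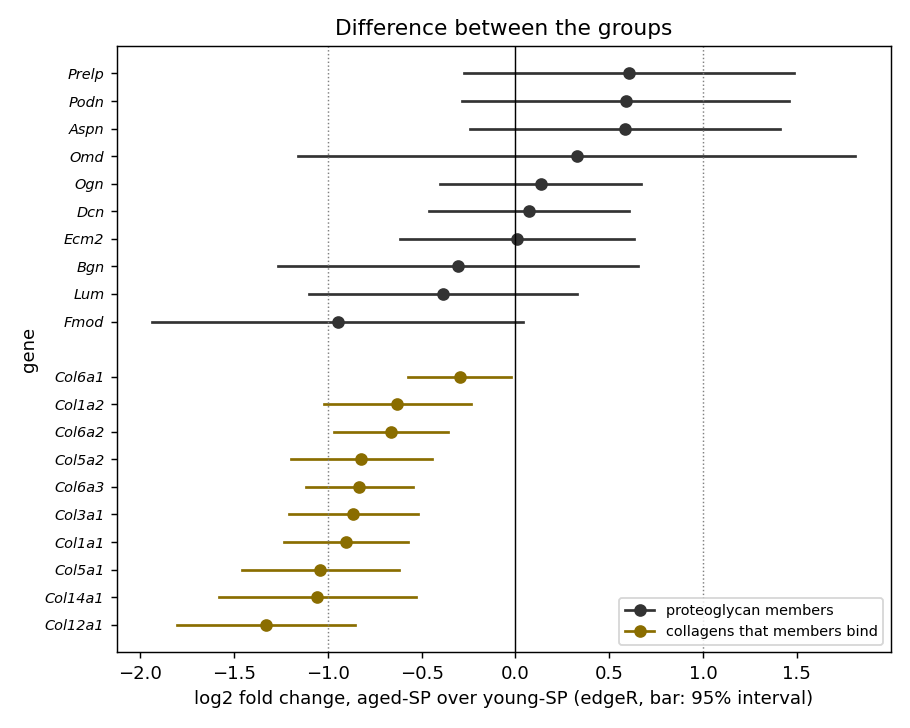
Log2 fold change of aged-SP over young-SP (x axis) with its 95% interval from edgeR for each member and each of the 10 collagens (y axis), with dotted lines at −1 and 1. Intervals of all 10 members include 0, from Fmod (−0.95) to Prelp (0.60), while those of the 10 collagens lie below 0.

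Set against the collagens, which were themselves lower in the aged-SP group, most members had higher ratios there, as did most tested genes. For every 1000 counts of the 10 collagens there were 141 and 167 counts of Dcn in the aged-SP libraries and 80.6, 75.7 and 103 in the young-SP libraries, a ratio of means of 1.78. Prelp had 11.6 and 15.3 counts per 1000 collagen counts in the aged-SP group against 4.98, 3.42 and 7.31 in the young-SP group. For 7 of the 10 members each aged-SP library had a ratio above all of the young-SP ratios, and the groups overlapped for Lum, Bgn and Fmod. The same holds for 76.4% of all tested genes, so that the 7 of 10 lie close to the share among genes at large. With the counts scaled to the collagens in place of TMM, 6 of 10 members and 67.9% of all tested genes had an unadjusted edgeR p under 0.05. Per length, the FPKM of Dcn came to 31.8% and 36.9% of the summed FPKM of Col1a1, Col1a2 and Col3a1 in the aged-SP group, and to 17.6%, 15.7% and 21.8% in the young-SP group.

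**Figure D3:**
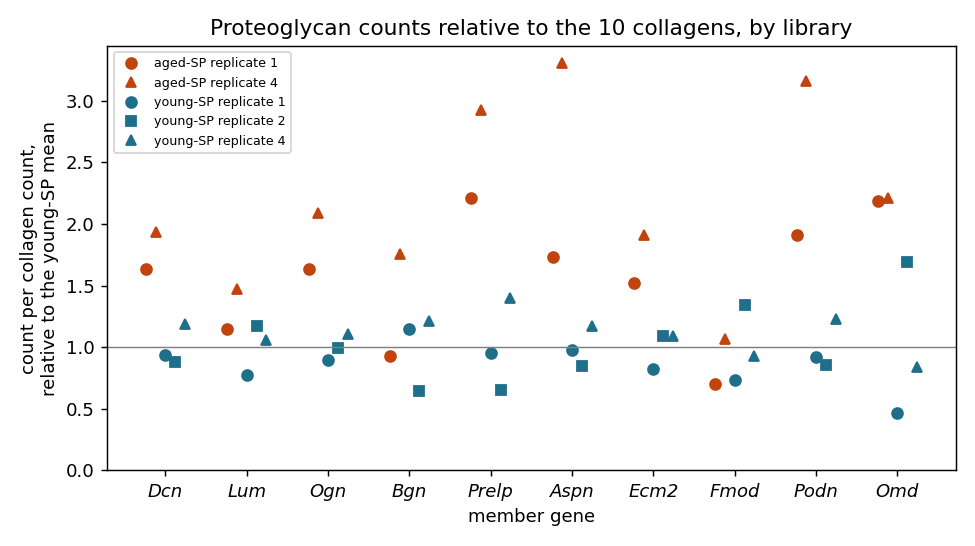
Counts of each member divided by the summed counts of the 10 collagens, relative to the young-SP mean (y axis), with 1 point per library (orange for aged-SP, blue for young-SP). The aged-SP points of Dcn, Ogn, Prelp, Aspn, Ecm2, Podn and Omd lie above all young-SP points, and those of Lum, Bgn and Fmod do not. Of all tested genes, 76.4% have aged-SP ratios above all young-SP ratios.

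The ratios between members were not constant across the 5 uteri. Likeness was described by the SD over the 5 libraries of the log2 ratio of CPM between a member and each of 141 other genes of the lists used here with a mean of at least 50 counts, a small SD meaning a near constant ratio. These values are a description over libraries that share the group difference, and no test was made. Dcn and Ogn kept a nearly constant ratio (SD 0.12), as did Ogn and Ecm2 (0.11). The gene closest to both Dcn (0.10) and Ogn (0.098) was Spock2, of the other proteoglycan core proteins. Dcn was also close to the smooth muscle genes Smtn (0.11) and Myh11 (0.14), with a median SD over all 141 genes of 0.41. After Ogn, Ecm2 was closest to the gland gene Foxa2 (0.14). Lum was close to the stroma genes Twist2 (0.12) and Vim (0.13) and to the protease gene Adamts5 (0.12), and Vim was also the gene closest to Fmod (0.24). The endothelial gene Tek was among the 5 genes closest to Lum (0.17) and to Ecm2 (0.17). Bgn was closest to the endothelial gene Vwf (0.18), followed by the smooth muscle genes Actg2 (0.24) and Cnn1 (0.24).

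Aspn and Podn, which lie on different chromosomes, had the most constant ratio of any pair of members (SD 0.10), and Optc was next to Aspn (0.13). Prelp was closest to the smooth muscle gene Lmod1 (0.19), and then to Podn (0.25) and the ovary gene Star (0.25). The least alike pair of members was Bgn and Omd (SD 1.15), where the low counts of Omd add to the spread, followed by Fmod and Prelp (1.07). There were 20.6 and 17.9 counts of Prelp for each count of Fmod in the aged-SP libraries and 8.54, 3.18 and 9.85 in the young-SP libraries. This pair was singled out after its values were seen, so its difference carries no test.

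**Figure D4:**
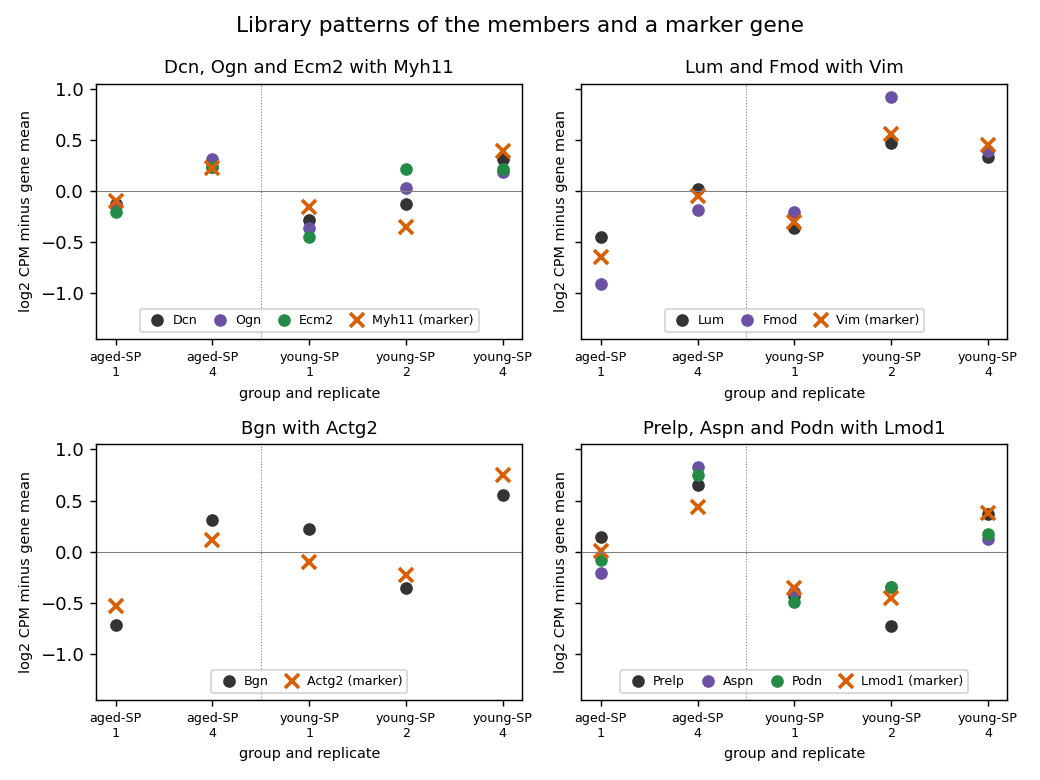
Log2 CPM of 9 members minus the mean of each gene over the 5 libraries (y axis), by library (x axis), with a cross for a marker gene of muscle (Myh11, Actg2, Lmod1) or stroma (Vim). These marker genes were picked as close to a member in the same libraries. Lum and Fmod are lowest in aged-SP replicate 1 and highest in young-SP replicate 2, where Prelp is at its lowest.

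The marker genes named above were picked as close to members in these same libraries, so their likeness was set by that choice. The sums given next use the full marker lists. The summed CPM of the 10 stroma markers was 1928 and 2217 in the aged-SP group and 2210, 3039 and 2949 in the young-SP group. Vim alone made up between 550 and 1268 CPM of these sums, and without it they were 1379 and 1385 against 1514, 1771 and 1774. Of these markers, 4 had an unadjusted edgeR p under 0.05 with a lower value in the aged-SP group and 1 with a higher value. Over all tested genes the shares were 9.36% lower and 9.62% higher. The summed CPM of the 8 myometrium markers was 9253 and 11736 against 9970, 9572 and 14504, with 0 markers at an unadjusted p under 0.05 in edgeR or at an adjusted p under 0.05 in DESeq2. Scaled to the stroma markers, the median log2 fold change of all tested genes shifted to 0.38 and that of the members to 0.49, and 4 of 10 members had an unadjusted p under 0.05, all with a higher value in the aged-SP group, against 21.3% of all tested genes in either direction. Scaled to the myometrium markers, the median of all genes was 0.090 and that of the members 0.20. The part of tissue makeup in the members' values was not tested.

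Markers of other cell types and tissues were measured in the same way. Summed CPM ran from 1269 to 1286 (aged-SP) and from 785 to 1563 (young-SP) for epithelium, from 3064 to 4171 and from 285 to 710 for uterine glands, from 630 to 651 and from 496 to 809 for endothelium, and from 335 to 371 and from 314 to 446 for leukocytes. Mesothelium markers, of the outer covering of the uterus, summed to between 51.4 and 59.7 CPM in the aged-SP group and between 53.2 and 136 CPM in the young-SP group. Adipose markers summed to between 3.20 and 6.88 CPM in all libraries, cervix and vagina markers to between 5.56 and 16.8 CPM, and oviduct markers to between 177 and 364 CPM. Ovary markers summed to 145 and 138 CPM in the aged-SP group and to 48.9, 30.9 and 56.5 CPM in the young-SP group. Over all tested genes, 19% had an unadjusted edgeR p under 0.05. The number of markers at this p was 1 of 9 for epithelium, 3 of 6 for glands (1 with a higher and 2 with a lower value after aged SP), 1 of 7 for endothelium, 0 of 6 for leukocytes, 2 of 5 for mesothelium, 0 of 1 for adipose tissue, 0 of 3 for oviduct, 1 of 2 for ovary and 1 of 3 for cervix and vagina. Their part in the members' values was not tested.

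Among the other small leucine-rich proteoglycans, 6 of 8 genes passed the filter, and 2 had an unadjusted edgeR p under 0.05, both with a lower value in the aged-SP group. Over all tested genes, 9.36% were lower at this p and 19% differed in either direction. Podnl1, the podocan-like gene, was at 2.42 and 1.47 CPM in the aged-SP group and 4.38, 5.62 and 4.27 CPM in the young-SP group (log2 fold change −1.29, SE 0.32, edgeR adjusted p = 0.134, DESeq2 adjusted p = 0.0267). Tsku, the secreted Wnt and TGF-beta modulator tsukushi, was at 18.6 ± 0.709 (SD, n = 2) against 35.2 ± 10.7 CPM (SD, n = 3), with a log2 fold change of −0.92 (edgeR adjusted p = 0.188, and 0.0194 without young-SP replicate 1). Optc, the neighbour of Prelp, had 24.4 and 56.7 CPM against 24.5, 26.0 and 29.4 CPM, and like Aspn it was high in aged-SP replicate 4 alone. Its log2 fold change of 0.61 (edgeR adjusted p = 0.399) was −0.12 without that library. Kera and Epyc, neighbours of Lum and Dcn known from cornea and cartilage, were near 0, with at most 7 and 1 counts in a library.

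The enzymes that build the sugar chains of the members gave 0 called genes in edgeR. Of 22 genes for the linker and the chondroitin or dermatan sulfate chain, 2 had an unadjusted edgeR p under 0.05 and a higher value and 3 a lower value in the aged-SP group (22.7% in all, median log2 fold change −0.10), close to the 19% over all tested genes. Chst15, which adds a second sulfate to chondroitin sulfate, was at 21.7 ± 3.71 against 13.7 ± 0.717 CPM (log2 fold change 0.66, edgeR adjusted p = 0.126), and Chsy1, a chain polymerase, had a log2 fold change of −0.82 (edgeR adjusted p = 0.216, and 0.0175 without young-SP replicate 1). Xylt2, which starts the chain, had a log2 fold change of −0.35 (edgeR adjusted p = 0.158) and B4galt7, which adds the next sugar, of −0.37 (edgeR adjusted p = 0.233). Of 8 tested keratan sulfate enzymes, 2 (25%) had an unadjusted edgeR p under 0.05, both lower in the aged-SP group, against 9.36% of all tested genes lower. These were Chst2, a sulfotransferase, at 12.6 ± 2.74 against 22.1 ± 2.72 CPM (log2 fold change −0.81, edgeR adjusted p = 0.133), and the galactosyltransferase B4galt4 (log2 fold change −0.49, edgeR adjusted p = 0.134).

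The other proteoglycan core proteins held the largest difference of the pathway lists among genes with counts in every library. Vcan, which encodes the large hyaluronan-binding proteoglycan versican, was at 70.6 and 35.8 CPM in the aged-SP group and 245.5, 215.7 and 260.2 CPM in the young-SP group (log2 fold change −2.18, SE 0.31, edgeR adjusted p = 0.0734). The groups did not overlap, and the adjusted p was 1.83e-10 with DESeq2 and 0.0381 with edgeR without young-SP replicate 1. Gpc6, a membrane-anchored heparan sulfate proteoglycan, had a log2 fold change of −1.14 (edgeR adjusted p = 0.0903), and 3 of the 16 tested core proteins had an unadjusted edgeR p under 0.05, all lower in the aged-SP group. This share of 18.8% in either direction is that of all tested genes (19%).

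Of the 15 tested receptors and ligands of the members, 7 were at an unadjusted edgeR p under 0.05, 6 of them higher in the aged-SP group, against 9.62% of all tested genes higher. This list too was chosen with earlier results of these data known. Igf1r, the insulin-like growth factor receptor that decorin binds, was at 125 ± 10.4 CPM (SD, n = 2) against 73.2 ± 1.59 CPM (SD, n = 3), with a log2 fold change of 0.77 (SE 0.092, edgeR adjusted p = 0.0650, and 0.0344 without young-SP replicate 1). Tgfb3, a ligand held by decorin and biglycan, had a log2 fold change of 0.77 (edgeR adjusted p = 0.0734, and 0.0482 without young-SP replicate 1) and P2rx7, a receptor for biglycan, of 0.73 (edgeR adjusted p = 0.0760). Egfr, which decorin binds and antagonizes, was lower in the aged-SP group, with a log2 fold change of −0.80 (edgeR adjusted p = 0.114). The next 3 genes by p in this list were named after their values were seen. Tlr4, the biglycan receptor, was at 77.6 ± 17.4 against 39.9 ± 9.15 CPM (log2 fold change 0.96, edgeR adjusted p = 0.131). DESeq2 called the other two, the receptor tyrosine kinase genes Erbb4 and Met, which edgeR did not. Erbb4 had counts of 250 and 27 in the aged-SP libraries and 0 in each young-SP library. By mean CPM this was at least 44.7-fold higher against a floor of 3 counts per library, a mean that rests mostly on the library with 250 counts. Met was at 105 ± 41.7 against 47.3 ± 15.8 CPM (log2 fold change 1.15, edgeR adjusted p = 0.177). The summed gland markers were also higher in both aged-SP libraries, as given above. In aged-SP replicates 1 and 4 that sum came mostly from Prss29 (2458 and 2137 CPM) and Prss28 (1446 and 764 CPM). The gland markers were divided in direction, 3 of 6 with a positive log2 fold change and 3 with a negative one. The part of the gland markers in the receptor values was not tested. Of 11 proteases that cut members, 1 (9.09%) had an unadjusted edgeR p under 0.05, against 19% of all tested genes. It was the membrane-bound collagenase gene Mmp14, at 514 ± 110 against 380 ± 43.1 CPM (log2 fold change 0.44, edgeR adjusted p = 0.255).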

How the data were processed

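Libraries of uterine RNA from 5 females were compared, 2 aged-SP and 3 young-SP per the sample labels. The submitters' processing notes name HISAT2 2.1.0, Bowtie2 2.2.3 and HTSeq 0.6.0, and the genome build is not given in the sources used here. All 10 members had the position of GENCODE M21 on GRCm38. The authors deposited raw counts per gene and library. Dividing the counts by gene length and library total gave the FPKM that the authors deposited, which served only for levels. The authors' own fold changes and p-values stand in the same table and were not used. A further young-SP library that the authors excluded as an outlier was not analysed here.

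Counts were filtered with filterByExpr, scaled with TMM and tested with glmQLFit and glmQLFTest in edgeR 4.0.16 (R 4.3.3), with Benjamini-Hochberg adjustment over 17013 genes. CPM values use the TMM-scaled library size. Alternatives were DESeq2 1.42.0, limma-voom (limma 3.58.1), robust edgeR, other scalings and filters, a replicate block and each library left out in turn, and scalings to collagens and myometrium markers were added after seeing the data. Depth was 15071914 to 16728601 counts per library. The members, the gene lists and the naming rule were chosen with earlier results of these data known. All members were named, and from each other list the called genes and up to 4 with the smallest p, and the proteoglycan genes that neighbour members. Tlr4, Erbb4, Met and the genes closest to members in the likeness comparison were named besides, after their values were seen.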

Additional observations from a re-analysis of the deposited data

How the results depend on the processing

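Across the other normalizations, tests and filters, 0 members were called in every one except the scaling to collagens, which called 3. Members at an unadjusted p under 0.05 numbered 0 as reported (19% of all tested genes), 4 when scaled to stroma markers (21.3%), 1 with DESeq2 (11.4%), 1 with no filter (12.8%), 3 with a replicate block (14.8%), 6 when scaled to collagens (67.9%), 2 when scaled to myometrium markers (10.7%), and 0 to 2 with 1 library left out (12% to 22.7%). The count of all tested genes called was 25 as reported, 152 when scaled to stroma markers, 632 with DESeq2, 203 with no filter, 2 with a replicate block, 3517 when scaled to collagens and 742 when scaled to myometrium markers. It ran from 1 to 578 with 1 library left out (1 without aged-SP replicate 1, 578 without young-SP replicate 1). Collagens lower at an unadjusted p under 0.05 numbered 10 as reported, 5 when scaled to stroma markers and 1 when scaled to collagens, which that scaling brings about by construction. With adjusted p under 0.05 they numbered 0 as reported, 9 with DESeq2, 5 with no filter, 3 when scaled to myometrium markers and 7 without young-SP replicate 1. Leaving out young-SP replicate 2 or 4 gave 0. The members' share was 0.273% of FPKM and 0.389% of total counts, the latter not divided by length. The cause of the other shifts was not tested.

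With 1 library left out, the log2 fold change ran from −0.11 to 0.26 for Dcn, −0.12 to 0.35 for Ogn, −0.23 to 0.21 for Ecm2, −0.027 to 1.01 for Aspn, −0.12 to 1.09 for Optc, −0.061 to 0.99 for Omd and −0.91 to 0.12 for Bgn. The sign turned without aged-SP replicate 4 for Dcn, Ogn, Ecm2, Aspn and Optc, without young-SP replicate 1 for Dcn (−0.061), Ogn (−0.021), Omd and Ecm2 (−0.19), and without aged-SP replicate 1 for Bgn. Scaled to stroma markers, it turned for Lum (0.025), Bgn (0.027), Xylt2 (0.029), B4galt7 (0.014), B4galt1 (0.14) and Mmp2 (0.20), scaled to collagens for Lum (0.39) and Bgn (0.43), and with library size alone for Ecm2 (−0.0063). Where an aged-SP library was left out, the lone one was assumed to vary like the young-SP group. Replicate numbers 1 and 4 occur in both groups, but the labels do not say that they pair females. Deviations from the group means correlated at 0.15 (number 1) and 0.14 (number 4), so the replicate block was kept as an alternative. What limits the precision of each member was not tested.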
